A study of Rattus with 12 samples.

Results

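The transcripts followed here are those of 8 genes of trophic signaling, 5 ligands that support neurons or glia (Ntf3, Gdnf, Cntf, Lif and Fgf2) and 3 neurotrophin receptors (Ntrk2, Ntrk3 and Ngfr). They were listed by symbol, with earlier results of these data known but with no measured value in the rule, out of 17337 genes in the count table, and Bdnf was not among them. Each was listed in the table, and 6 of the 8 passed the filter on low counts, as did 12271 genes in all. RNA came from complex cultures of Sprague Dawley rat cortical neurons, astrocytes and oligodendrocyte precursor cells (OPCs), bought as primary cells and seeded together. They were kept for 4 days without fentanyl (untreated, 0 μM) or with fentanyl, a μ-opioid receptor agonist, at 0.01 μM (low dose) or 10 μM (high dose). Each condition had 4 cultures, lettered A, G, M, P (untreated), B, H, N, Q (low dose) and C, I, O, R (high dose). Cultures whose letters follow each other, A with B and C, G with H and I, M with N and O, and P with Q and R, are here called letter sets and written A-B-C and so on. Each holds 1 culture per condition, but no source used here says what the letters stand for. Differences within the sets are listed in alphabetical order of the sets. Whether cultures came from separate cell preparations is not given in the labels, so p-values measure only the spread between these samples.

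Neurotrophins act through Trk receptor tyrosine kinases and through the shared receptor p75NTR. NT-3, the product of Ntf3, prefers TrkC (Ntrk3), and BDNF and NT-4 bind TrkB (Ntrk2), whereas p75NTR (Ngfr) binds every mature neurotrophin. In the cortex, neurons carry full-length TrkB and astrocytes mainly carry a truncated form, which a count per gene does not separate. GDNF signals through a GFRα co-receptor and the kinase RET, CNTF and LIF through the LIF receptor and gp130, and FGF2 through FGF receptors on glia and neurons.

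Libraries held between 12059872 and 24813893 counts. The marker lists of the 3 seeded cell types were present in each culture, with the neuronal gene Rbfox3 at 58.6 to 93.5 CPM (counts scaled by library size and TMM) in 11 cultures. Untreated culture G stood apart with 1.30 CPM of Rbfox3 and a summed level of 14 neuronal markers of 334 CPM, against 3273 to 4866 CPM in the other 11 cultures. Its summed fibroblast markers were at 3119 CPM (944 to 5066 CPM in the others) and its endothelial markers at 66.9 CPM (9.44 to 20.6 CPM). Fitted fold changes of the trophic genes against untreated cultures are therefore given with and without G. In bulk RNA, fewer cells of a type and less RNA per cell cannot be told apart.

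None of the trophic genes was called at either dose. A call required an adjusted p below 0.05 (edgeR quasi-likelihood test, Benjamini-Hochberg adjustment over all genes) together with a fold change of more than 0.5 on the log2 scale, up or down. By this rule 0 of the 6 genes tested were called for either dose against untreated cultures or for one dose against the other, with a background of 0% of 12271 genes each time. With no gene called at all, this fit does not set the 6 genes apart from the rest. The study reported called genes in each comparison at these thresholds, from a fit that it does not describe in full. The adjusted p of each of the 6 genes was 0.99997 for the low dose and 0.9999 for the high dose against untreated, and 0.9999 between doses. An unadjusted p under 0.05 was reached by 91, 146 and 144 of the 12271 genes in this order (0.742%, 1.19% and 1.17%), and by none of the 6. DESeq2 called 0, 3 and 1 genes, also none of the 6. With a block for the letter sets and without G, the share of 12337 genes called was 0% for the low dose and 0.122% for the high dose against untreated, and 0.113% between the doses, again with 0 of the 6.

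The dose differences of the 6 genes lay between -0.36 and 0.56 on the log2 scale in the reported fit. Cntf had the largest positive value, 0.56 (SE 0.37) in high dose vs. untreated, and Ntrk2 the most negative, -0.36 (SE 0.24) in the same comparison. These were also the only genes of the 6 tested with one direction in all 4 letter sets in high dose vs. untreated.

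**Figure D1:**
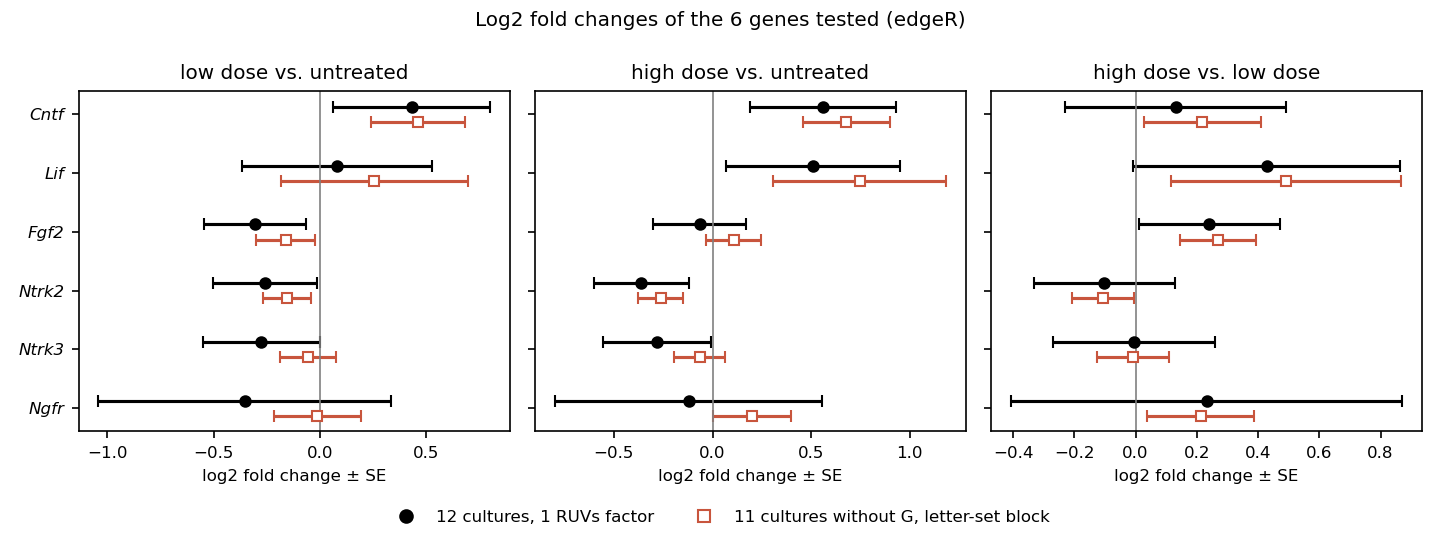
Log2 fold change (x axis, bars ± SE) of the 6 genes that passed the filter on low counts, for 3 comparisons. Black circles are the fit of 12 cultures with 1 factor of unwanted variation and open squares the fit of 11 cultures without G with a letter-set block; for Ngfr the SE in high dose vs. untreated was 0.68 and 0.20, and no adjusted p was under 0.05.

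Among the receptors, Ntrk2 was abundant in each culture, with 11916 to 32994 counts. Its level was 1411, 1228, 1209 and 1485 CPM in untreated A, G, M and P, then 1386, 907, 879 and 1569 CPM in B, H, N and Q under the low dose, and 1373, 891, 768 and 1364 CPM in C, I, O and R under the high dose. The conditions overlapped, and the 4 lowest values came from the treated cultures of G-H-I and M-N-O. Without fentanyl the mean was 1333 ± 136 CPM (SD, n = 4), at the low dose 1185 ± 346 CPM and at the high dose 1099 ± 315 CPM. Neighbours in this order differed by less than the larger of their SDs. The untreated and high dose means differed by more than the untreated SD and by less than the high dose SD. These SDs include the spread between letter sets, which held 72.0% of the variance of Ntrk2 on the log2(CPM + 1) scale. On the log2(CPM + 1) scale, the high dose cultures differed from the untreated ones by -0.32 (exact two-sided permutation p = 0.286, where 0.0286 is the smallest possible). Within the letter sets the difference was -0.040, -0.46, -0.65 and -0.12, lower at the high dose each time. The summed level of 11 astrocyte markers was also lower at the high dose in 3 of the 4 sets, at 8127 CPM in G and 3016 CPM in I, 4521 CPM in M and 2242 CPM in O, and 10362 CPM in P and 8425 CPM in R, but not in A (3686 CPM) and C (4857 CPM). The cultures O, I and N, with the lowest astrocyte sums, were among the 4 lowest for Ntrk2. Low dose H, also among those 4, had 4418 CPM of astrocyte markers. Untreated A had the next lowest sum, 3686 CPM, but 1411 CPM of Ntrk2. Gfap, 1 of the 11 markers, was at 836 to 6867 CPM. The part of these markers in the level of Ntrk2 was not tested. In high dose vs. untreated, 1 of the 6 genes was lower in all 4 sets and 5.22% of all genes tested were. With the letter-set block and without G the log2 fold change was -0.26 (SE 0.11, unadjusted p = 0.0459, adjusted p = 0.509 from edgeR). At the low dose the log2 fold change against untreated was -0.26 (SE 0.24) in the reported fit and -0.16 (SE 0.11) with that block and without G.

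Between the doses, Ntrk2 was again lower at 10 μM in all 4 sets, with differences of -0.014, -0.025, -0.19 and -0.20, and its fold change was -0.10 on the log2 scale (SE 0.23). Both comparisons use the same high dose cultures. This made 1 of 6 genes lower in all sets, where 11.1% of all genes were, and 0 of 6 higher, where 11.7% were.

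For Ntrk3, the receptor preferred by NT-3, untreated A, G, M and P had 22.8, 23.5, 12.8 and 25.3 CPM, low dose B, H, N and Q 21.0, 12.2, 16.4 and 20.8 CPM, and high dose C, I, O and R 18.4, 14.1, 14.2 and 23.2 CPM. Means were 21.1 ± 5.65 CPM (SD, n = 4), 17.6 ± 4.16 CPM and 17.5 ± 4.32 CPM, which differed by less than these SDs. The letter sets were further apart than the doses. P-Q-R had 20.8 to 25.3 CPM and M-N-O 12.8 to 16.4 CPM, without overlap. Without G, the letter sets held 87.5% and the doses 5.19% of the variance of Ntrk3 on the log2(CPM + 1) scale, against medians of 75.3% and 7.96% over all genes tested. In the reported fit its log2 fold change against untreated was -0.28 at both doses (SE 0.28 and 0.27). With the letter-set block and without G it was -0.057 (SE 0.13) at the low dose and -0.065 (SE 0.13) at the high dose. Between the doses the reported fit gave -0.0060 (SE 0.26).

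Ngfr, which encodes p75NTR, showed the widest range of the trophic genes on the log2(CPM + 1) scale. Without fentanyl it was at 3.01 CPM in A, 98.4 CPM in G, 6.17 CPM in M and 10.1 CPM in P. The low dose cultures B, H, N and Q had 3.08, 7.72, 5.22 and 10.0 CPM and the high dose cultures C, I, O and R 2.37, 7.07, 8.19 and 14.1 CPM. Culture G, with 1517 counts, was 6.96 times as high as the next culture and 13.9 times the median of the other 11, which had 40 to 342 counts. In the other 11 cultures Ngfr followed the letter sets. It was lowest in A-B-C (2.37 to 3.08 CPM) and highest in P-Q-R (10.0 to 14.1 CPM), with the remaining cultures at 5.22 to 8.19 CPM. Without G the letter sets held 92.6% of its variance and the doses 1.72%. The summed OPC markers had the same lowest and highest sets, with 826 to 1069 CPM in A-B-C and 3541 to 3832 CPM in P-Q-R, and Schwann cell markers, 6 of 7 listed in the table, were at 231 to 265 and 432 to 488 CPM. The part of these cell types in the level of Ngfr was not tested. The log2 fold change of Ngfr in high dose vs. untreated was -0.12 (SE 0.68) in the reported fit, 0.44 in that fit without G, and 0.20 (SE 0.20, adjusted p = 0.813 from edgeR) without G and with the letter-set block. At the low dose these values were -0.35 (SE 0.69), 0.18 and -0.013 (SE 0.20). Fitted to all 12 cultures without the factor for unwanted variation, the value was -2.17 at the low dose and -1.89 at the high dose.

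**Figure D2:**
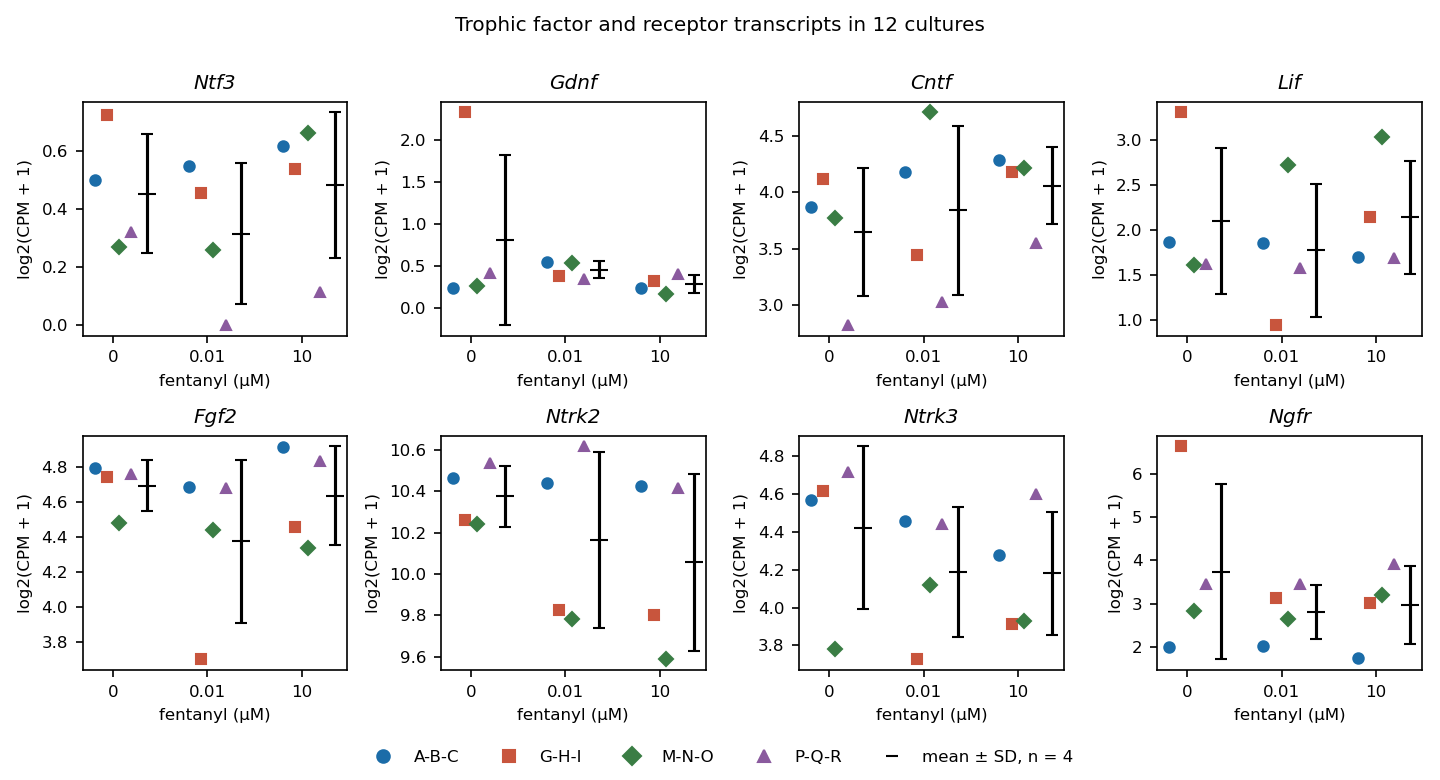
Level of the 8 genes in the 12 cultures as log2(CPM + 1), by fentanyl dose (0, 0.01 and 10 μM), with 1 panel and its own y axis per gene. Symbols are cultures, colored by letter set, and black bars the mean ± SD (n = 4); Gdnf, Lif and Ngfr have their highest value in untreated culture G, and Ngfr otherwise lies lowest in A-B-C.

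Of the ligands, Cntf, a survival factor for neurons and oligodendrocytes that astrocytes and Schwann cells make, had 73 to 386 counts. The untreated cultures A, G, M and P had 13.6, 16.3, 12.7 and 6.07 CPM of it, B, H, N and Q under the low dose 17.1, 9.88, 25.2 and 7.15 CPM, and C, I, O and R under the high dose 18.5, 17.1, 17.6 and 10.7 CPM. The means were 12.2 ± 4.36, 14.8 ± 8.08 and 16.0 ± 3.57 CPM (SD, n = 4) from untreated to high dose, and each step was smaller than these SDs. At each dose the lowest culture was that of P-Q-R, and the conditions overlapped.

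In each letter set Cntf was higher under 10 μM fentanyl than without it, by 0.42, 0.065, 0.44 and 0.73 as differences of log2(CPM + 1). So 1 of the 6 genes was higher in each set, beside 5.22% of all genes tested. The pooled difference was 0.41 (exact two-sided permutation p = 0.286). With the letter-set block and without G the log2 fold change was 0.68 (SE 0.22, unadjusted p = 0.0128, adjusted p = 0.370 from edgeR), so that Cntf and Ntrk2 were 2 of the 6 genes with an unadjusted p under 0.05 in that fit, where 9.43% of 12337 genes were. At the low dose the log2 fold change against untreated was 0.43 (SE 0.37) in the reported fit. It was 0.46 (SE 0.22) with the letter-set block and without G. Microglial markers were low where Cntf was lowest and highest where it was highest, though not in the same order elsewhere. Their summed level was 48.7 to 61.3 CPM in P-Q-R and 430 to 1746 CPM in the other 9 cultures, with the highest value in low dose N, where Cntf was also highest. Low dose H, with 884 CPM of these markers, had less Cntf than A, B, C and M, with 430 to 745 CPM. Of the 12 microglial markers, Cx3cr1 had 0 to 94 counts. The summed markers of the named sources of Cntf went the other way in P-Q-R. There astrocyte markers were highest at 8425 to 11945 CPM, and Schwann cell markers were highest at 432 to 488 CPM. In N, astrocyte markers were at 3375 CPM. The part of the microglial, astrocyte and Schwann cell markers in the level of Cntf was not tested.

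Lif, an injury-induced cytokine of the same receptor family, was sparse, with 15 to 137 counts. Its values were 2.66, 8.89, 2.06 and 2.08 CPM in A, G, M and P (untreated), 2.62, 0.93, 5.61 and 1.99 CPM in B, H, N and Q (low dose) and 2.25, 3.41, 7.16 and 2.23 CPM in C, I, O and R (high dose). The high values were single cultures, G, N and O, and the conditions overlapped. Against untreated its log2 fold change was 0.08 (SE 0.45) at the low dose, or -0.32 without low dose N, and 0.51 (SE 0.44) at the high dose. With the letter-set block and without G the values were 0.25 (SE 0.44) and 0.75 (SE 0.44). Between the doses it was 0.43 (SE 0.44). Within the sets the differences of the high dose cultures from the untreated ones were -0.17, -1.16, 1.42 and 0.070, which have no common direction.

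Fgf2, a mitogen of glia and neural progenitors, had 194 to 667 counts and was the steadiest of the ligands. Levels were 26.7, 25.8, 21.3 and 26.1 CPM without fentanyl (A, G, M, P), 24.7, 11.98, 20.7 and 24.7 CPM at the low dose (B, H, N, Q) and 29.1, 21.0, 19.2 and 27.6 CPM at the high dose (C, I, O, R). Low dose H was the only culture under 19 CPM. Fgf2 was lower at the low dose than without fentanyl in all 4 sets, with differences of -0.11, -1.04, -0.042 and -0.078 (pooled -0.32, exact two-sided permutation p = 0.171). This was 1 of the 6 genes, where 5.28% of all genes were lower and 4.06% higher in all 4 sets, and 0 of the 6 were higher. The log2 fold change in low dose vs. untreated was -0.31 (SE 0.24), and -0.12 without low dose H. With the letter-set block and without G it was -0.16 (SE 0.14), and in high dose vs. untreated it was -0.065 (SE 0.24) in the reported fit and 0.11 (SE 0.14) in the other. On the GRCr8 assembly Fgf2 overlaps Nudt6, its antisense partner, and the library kit does not mark strand, so reads of the shared stretch cannot be assigned to either gene. Nudt6 was also lowest in H, with 23.2 CPM against 27.1 to 42.6 CPM in the other cultures.

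Ntf3 and Gdnf did not pass the filter on low counts and were not tested by edgeR. Counts of 3 or fewer in a culture, worth 0.12 to 0.25 CPM, were taken as the floor, and intervals cover counting error only. Ntf3, the ligand of TrkC, had 7, 10, 3 and 3 counts without fentanyl (A, G, M, P), 6, 6, 3 and 0 at the low dose (B, H, N, Q) and 9, 9, 9 and 2 at the high dose (C, I, O, R). Summed over the 4 untreated cultures this was 0.39 CPM (exact 95% Poisson interval 0.25 to 0.59). The sum at the low dose was 0.25 CPM (0.14 to 0.42), that at the high dose 0.38 CPM (0.25 to 0.54), and a difference was not detectable at this depth. For the 0 counts in Q alone the interval reached 0.25 CPM.

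Gdnf, a survival factor for dopaminergic and motor neurons, had 3 counts in untreated A, 62 in G, 3 in M and 4 in P. The low dose cultures had 4 to 7 counts and the high dose cultures 2 to 8. Culture G, at 4.02 CPM (95% Poisson interval 3.08 to 5.16), was 8.71 times as high as the next culture, and the other 11 cultures lay at 0.13 to 0.46 CPM. Without G the summed untreated level was 0.23 CPM (interval 0.11 to 0.42), beside 0.37 CPM (0.23 to 0.56) for the low and 0.24 CPM (0.14 to 0.37) for the high dose. A difference between doses was not detectable at this depth.

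**Figure D3:**
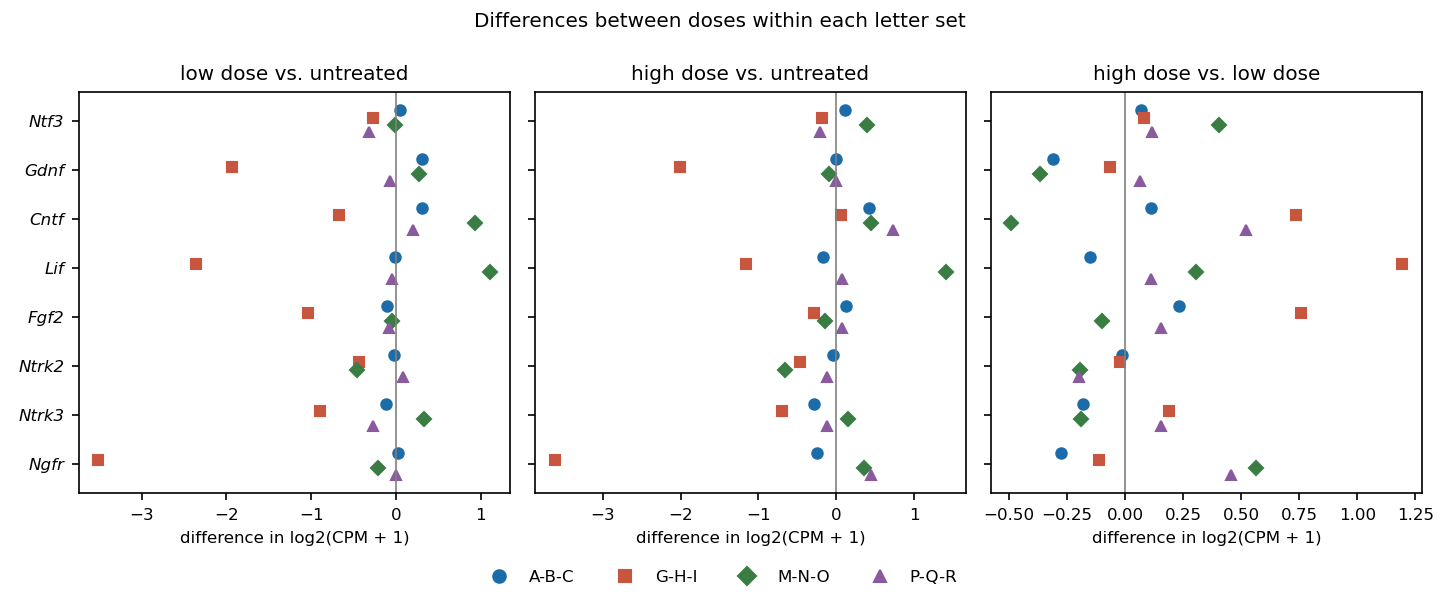
Difference in log2(CPM + 1) between doses within each of the 4 letter sets (colors and symbols), for the 8 genes and 3 comparisons; the x axis of each panel has its own range. The points of G-H-I far to the left in the comparisons with untreated cultures, as for Ngfr with -3.51 at the low dose and -3.62 at the high dose, have culture G as their untreated value.

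Genes of these pathways were taken from 5 hand-written lists with 116 genes, of which 93 were tested. Beside ligands and receptors, the lists hold adaptors, signaling genes such as Jak1 and Stat3, and receptor kinase feedback genes. The 93 include the trophic genes Cntf, Lif, Fgf2, Ntrk2, Ntrk3 and Ngfr, which are counted here again. In the reported fit, 0 of the 93 were called in any comparison. No gene of the lists had an unadjusted p under 0.05 for the low dose against untreated, and 2 did for the high dose (Manf higher, Vgf lower). Between the doses 5 of the 93 did, beside 1.17% of all genes, with Dok6 higher and Sorcs2, Gfra2, Il11ra1 and Vgf lower at 10 μM. In that comparison 9 of the 93 genes were higher and 14 lower in all 4 letter sets, beside the shares of 11.7% and 11.1% over all genes. The median log2 fold change over the 93 genes was 0.014 and -0.016 for low and high dose against untreated and -0.068 between the doses, beside 0.013, 0.0031 and -0.0087 over all genes tested. With the letter-set block and without G, 3 of the 93 were called, all lower in high dose vs. low dose, where 0.113% of all 12337 genes were called in either direction. These were Bdnf (log2 fold change -1.63, adjusted p = 0.0119, edgeR), the RET adaptor Dok5 (-0.95, adjusted p = 0.0071) and Vgf, a secreted neuropeptide precursor that neurotrophins induce (-1.48, adjusted p = 0.0419).

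The partners of the trophic genes differed between letter sets and in culture G. Ret, the kinase of the GDNF receptor, was at 69.7 to 77.4 CPM in A-B-C and at 7.01 to 43.7 CPM in the other 9 cultures, whereas its co-receptor Gfra1 was highest in G at 178 CPM, against 35.1 to 90.1 CPM. Ntf4, a ligand of TrkB, had at most 2 counts in a culture.

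For CNTF and LIF, the shared signal transducer Il6st (gp130) was at 523 CPM in G and 213 to 336 CPM in the others, and Osmr at 105 and 17.5 to 44.7 CPM. The CNTF receptor subunit Cntfr was higher in A-B-C (40.0 to 47.7 CPM) than in the other sets (26.8 to 31.8 CPM). Cntfr was lower in all 4 letter sets at the low dose and at the high dose than in untreated cultures, which both comparisons share. Its log2 fold change was -0.19 (SE 0.20) at each dose, and -0.14 (SE 0.070) with the block and without G. Of the 93 listed genes tested, 4 were lower in all 4 sets at the low dose (4.30%) and 5 at the high dose (5.38%). These shares were near those of all genes, 5.28% and 5.22%. Among the FGF receptors, Fgfr1 was at 275 to 502 CPM, and Fgfr3, which is also an astrocyte marker, at 26.4 to 93.3 CPM. The ligand Fgf1 had 146 counts in G and 4 to 39 in the others.

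**Figure D4:**
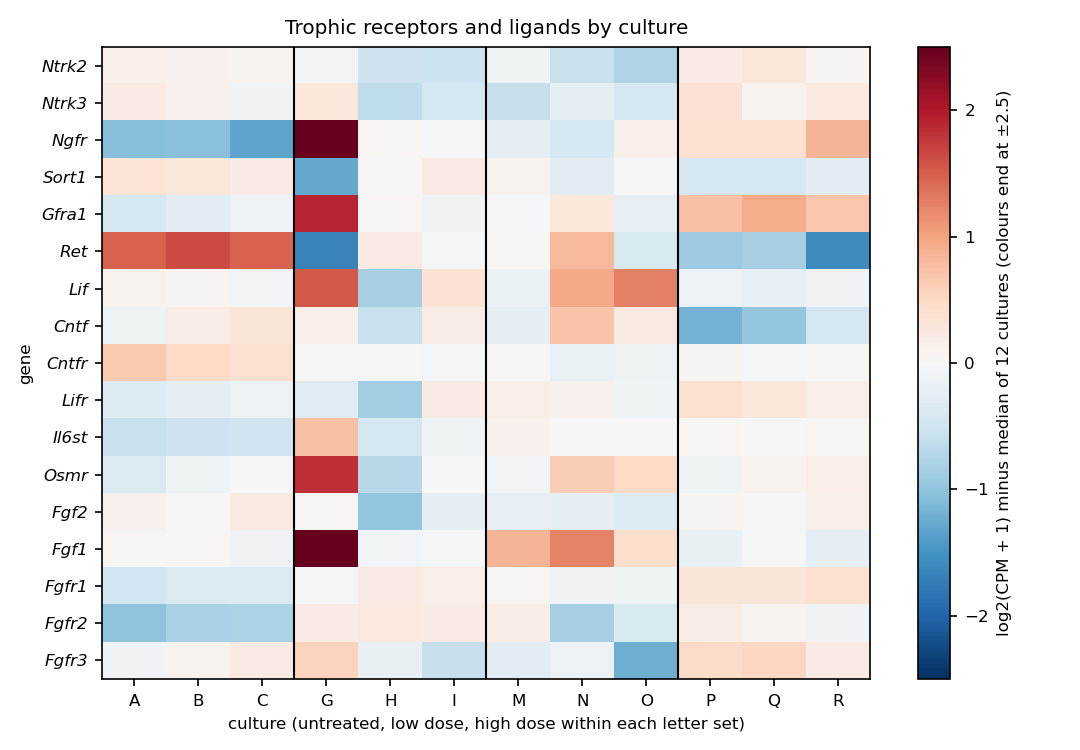
Trophic receptors and ligands (rows) in the 12 cultures (columns, grouped by letter set, each in the order untreated, low dose, high dose), colored by log2(CPM + 1) minus the median of the gene. Ret is high in A-B-C, Ngfr, Gfra1, Lif, Osmr and Fgf1 are high in culture G, and Cntf is low in P-Q-R.

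The genes with the most similar pattern were ranked by the smaller of 2 Pearson correlations of log2(CPM + 1), over 12 cultures and over 11 without G. These are descriptions over cultures that share letter sets. For Ntrk2 they were Appl2 (r = 0.97 and 0.97), Zbtb26 (0.95 and 0.95) and Slc4a4 (0.94 and 0.96), for Ntrk3 Fxyd6 (0.91 and 0.92), Taf1d and Wwp1, and for Ngfr Ptgds (0.95 and 0.97), Scfd2 and Btc. For Cntf they were Cbr3 (0.95 and 0.95), Ggta1 and Rgs18, and for Fgf2 Pdpr (0.97 and 0.97), Trove2 and Amer1. Lif was most like Clcf1 (0.94 and 0.95), which encodes another ligand of the CNTF receptor, followed by Slc39a6 and Msn. For the sparse Ntf3 and Gdnf the first genes were Commd10 (0.93 and 0.92) and Htra3 (0.85 and 0.73), at counts too low for the order to be read. Among pairs of the trophic genes, by the smaller of the same 2 correlations, Fgf2 and Ntrk3 (0.78 and 0.78), Ntrk2 and Ntrk3 (0.76 and 0.78) and Fgf2 and Ntrk2 (0.71 and 0.72) came first. Gdnf and Ngfr had r = 0.85 over 12 cultures and 0.084 without G.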

How the data were processed

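Poly(A)-enriched libraries of 12 cultures were sequenced, mapped by STAR to the rat build rn6 and counted by featureCounts, all by the authors. Their deposited table gives raw counts, in whole numbers per gene symbol and culture, with no normalization. The count table and the labels were the only data used.

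RUVseq and edgeR are named in the study's methods, but not the number of factors or the test. Here counts were scaled by TMM (edgeR 4.0.16, R 4.3.3), filtered by filterByExpr and fitted for all 12 cultures with the 3 conditions and 1 RUVs factor, whose formula was rewritten. SEs come from the quasi-likelihood F statistics. Single genes were also compared on the log2(CPM + 1) scale by exact permutation tests, with 70 arrangements of the 8 cultures. The procedure was run on simulated counts without letter-set differences and without a culture like G, so that run does not cover these features of the data. No cultures of 1 dose agreed within sampling noise.

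The trophic genes, pathway lists, marker lists and alternatives were chosen with earlier results of these data known. The text names these 8 genes, their direct ligands and receptors, and the 3 most similar genes for each. Some of these partners and markers are not reported here. Pathway genes outside this rule and Nudt6 were named after their values were seen. Alternatives were no factor, 2 or 4 RUVs factors, a letter-set block with or without culture G, DESeq2 1.42.0, its size factors, no filter, an offset of 0.1 and each culture left out. Lengths of rn6 transcripts were not used here, so levels were not compared between genes. Overlapping genes were looked up on GRCr8, where each of the 8 symbols matched 1 gene.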

Additional observations from a re-analysis of the deposited data

Results flagged for a closer look

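In 3 of 24 groups of 4 cultures (8 genes at 3 doses), 1 culture lay farther from the others in CPM than Dixon's 95% critical value for 4 samples allows. Each was untreated culture G, which also has few neuronal transcripts. Chance alone gives about 1 in 20 groups only where values are normally distributed and groups are independent. CPM values need not be normal, and the 8 genes share the same cultures. The rule was not applied to log2(CPM + 1). The values below are those of culture G. The level of Ngfr was 98.4 CPM, with the nearest untreated culture at 10.1 CPM and a gap of 0.93 of the range. For Lif it was 8.89 CPM, with the nearest at 2.66 CPM and a gap of 0.91. For Gdnf it was 4.02 CPM, with the nearest at 0.33 CPM and a gap of 0.96. Whether the makeup of G accounts for these values was not tested.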

How the results depend on the processing

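None of the 6 genes tested was called under any of the 20 alternatives of the model, whose lowest adjusted p was 0.137 (Fgf2 in high dose vs. low dose, 4 RUVs factors, edgeR). Over all genes, low dose vs. untreated gave 0 calls under each alternative. For the high dose against untreated and against the low dose there were 1 and 1 calls with 2 RUVs factors, 39 and 113 with 4 factors, 15 and 14 with the letter-set block without G, and 3 and 1 with DESeq2.

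Of 360 log2 fold changes under alternatives, 325 kept their direction and 35 changed sign. In high dose vs. untreated, Fgf2 was 0.12 with 4 factors and 0.11 with the block without G, Lif was -0.064 with no factor and -0.15 with the letter-set block, and Ngfr was 0.011 with 2 factors, 0.18 with 4 and 0.20 with the block without G. Ngfr moved farthest with no factor, to -1.89 in that comparison and -2.17 in low dose vs. untreated. In low dose vs. untreated, Lif was -0.49 with no factor, -0.16 with 4 factors and -0.50 with the block. In high dose vs. low dose, Ntrk3 was 0.041 with 4 factors and 0.00016 with no filter. Leaving out 1 culture in turn gave, in low dose vs. untreated, -0.32 (without N) to 0.34 for Lif and -1.28 (without A) to 0.18 (without G) for Ngfr. In high dose vs. untreated it gave -0.16 to 0.043 for Fgf2 and -1.02 (without A) to 0.44 (without G) for Ngfr. In high dose vs. low dose it gave -0.094 (without Q) to 0.45 (without N) for Cntf, -0.41 (without R) to 0.61 (without Q) for Ngfr, -0.22 to 0.053 for Ntrk2 and -0.18 to 0.089 for Ntrk3. In high dose vs. untreated, Cntf stayed above 0 (0.24 without P to 0.77 without A) and Ntrk2 below 0 (-0.48 to -0.18) in all 20 alternatives.

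Of 64 differences of means under alternatives, 60 kept their direction. Without G those with untreated cultures were 0.15 for Gdnf, 0.075 for Lif and 0.043 for Ngfr at the low dose and 0.20 for Ngfr at the high dose. The cause of the changes was not tested. The depth does not support a comparison of Ntf3 or Gdnf between doses.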
